A study of Mus musculus with 2 samples.

Results

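The genes described here are 10 genes of T cell costimulation among the 31053 genes of the deposited matrix, chosen by symbol, and each symbol matched 1 row. They were the receptors Tnfrsf4 (OX40), Tnfrsf9 (CD137), Tnfrsf18 (GITR), Cd27, Cd28, Icos and Cd40 and the ligands Cd40lg, Icosl and Tnfsf9 (CD137 ligand). They share a function rather than a family. Tnfrsf4, Tnfrsf9, Tnfrsf18, Cd27 and Cd40 encode receptors of the tumour necrosis factor (TNF) receptor family and Cd40lg and Tnfsf9 encode TNF-family ligands, whereas Cd28, Icos and Icosl encode proteins of the immunoglobulin superfamily.

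The cells were live CD45+ cells, leucocytes by their surface protein CD45, sorted from B16 melanoma tumours of C57BL/6 mice aged 8 weeks, and their RNA was counted with the 10x Genomics 3' chemistry. The library labelled WT came from Mettl3 fl/fl Lyz2 +/+ mice and the library labelled KO from Mettl3 fl/fl Lyz2 cre/+ mice, so both carried floxed alleles of Mettl3, which encodes the catalytic subunit of the RNA N6-methyladenosine writer, and only the second carried Cre, which acts in macrophages, monocytes and granulocytes and, per the study, in a few dendritic cells, and leaves 1 intact Lyz2 allele. Each library pooled several mice and there was 1 library per genotype, so no spread between mice was measured, no test between genotypes was possible, and every difference below compares these 2 libraries. All intervals are 95% intervals that cover counting error only, and molecules counted in 1 cell are not independent of each other.

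T cells need a second signal beside the T cell receptor, and costimulatory receptors deliver it. CD28 is present on resting T cells and binds CD80 and CD86 on antigen-presenting cells, ICOS appears after activation and binds ICOS ligand, and CD27 is present on naive and memory cells and binds CD70. OX40, CD137 and GITR appear after activation, signal through TRAF adaptors to NF-kB, and are high on regulatory T cells in tumours. CD40 works in the other direction: it sits on B cells, macrophages and dendritic cells, and CD40 ligand on helper T cells engages it.

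After the cell filter 5405 cells labelled WT, with a median of 4148 unique molecular identifiers (UMIs), and 7625 cells labelled KO, with a median of 3567, were sorted into classes by marker genes. T-like cells numbered 584 and 748, macrophage-like cells 1796 and 2544, and monocyte-like cells 769 and 2050. T-like cells were divided by a UMI of Cd8a or Cd8b1, of Cd4 and of Foxp3 into the classes CD8 T-like, CD4 T-like (without Foxp3) and Foxp3 T-like, and the remaining T-like cells were called other T-like. Cells with markers of several lineages were set aside as mixed, 12.3% of the first library and 6.66% of the second. The mixed cells held 38.2% of all Cd27 UMIs in the library labelled WT and 24.8% in the library labelled KO, and 35.8% and 33.9% of the Tnfrsf4 UMIs, so the classes below describe the rest. Levels are UMIs per 1000000 UMIs summed over the cells of a class in a library (CPM), so cells with many UMIs weigh more, and a log2 ratio is that of the library labelled KO over the library labelled WT. A gene was measured in a class with at least 20 UMIs over both libraries.

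Mettl3 itself did not separate the libraries, with 11 and 10.8 CPM in the macrophage-like class. The floxed exon is not given in the sources used here, and counts at the 3' end may not see the loss of an inner exon, so the labels were not checked by this gene and the libraries are called by their labels throughout. Lyz2 was at 6062 and 2653 CPM in these cells. In T-like cells, which do not make Lyz2, it was still at 242 and 108 CPM. The macrophage gene C1qa was at 41.4 and 44.6 CPM in T-like cells and 2924 and 2755 CPM in macrophage-like cells, so some myeloid RNA was counted in T-like cells of both libraries. Its part in the differences below was not tested.

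The 10 genes fell into 3 groups by where they were counted. Tnfrsf4, Tnfrsf9, Tnfrsf18, Cd27, Cd28, Icos and Cd40lg were highest in a T-like class in both libraries. Cd40 was highest in mature dendritic cells, and Icosl and Tnfsf9 were spread over antigen-presenting and other cells with no class that led in both libraries. Tnfrsf4, Tnfrsf9 and Tnfrsf18 were also counted in mature dendritic cells, each above every other class outside T-like and NK-like cells.

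**Figure D1:**
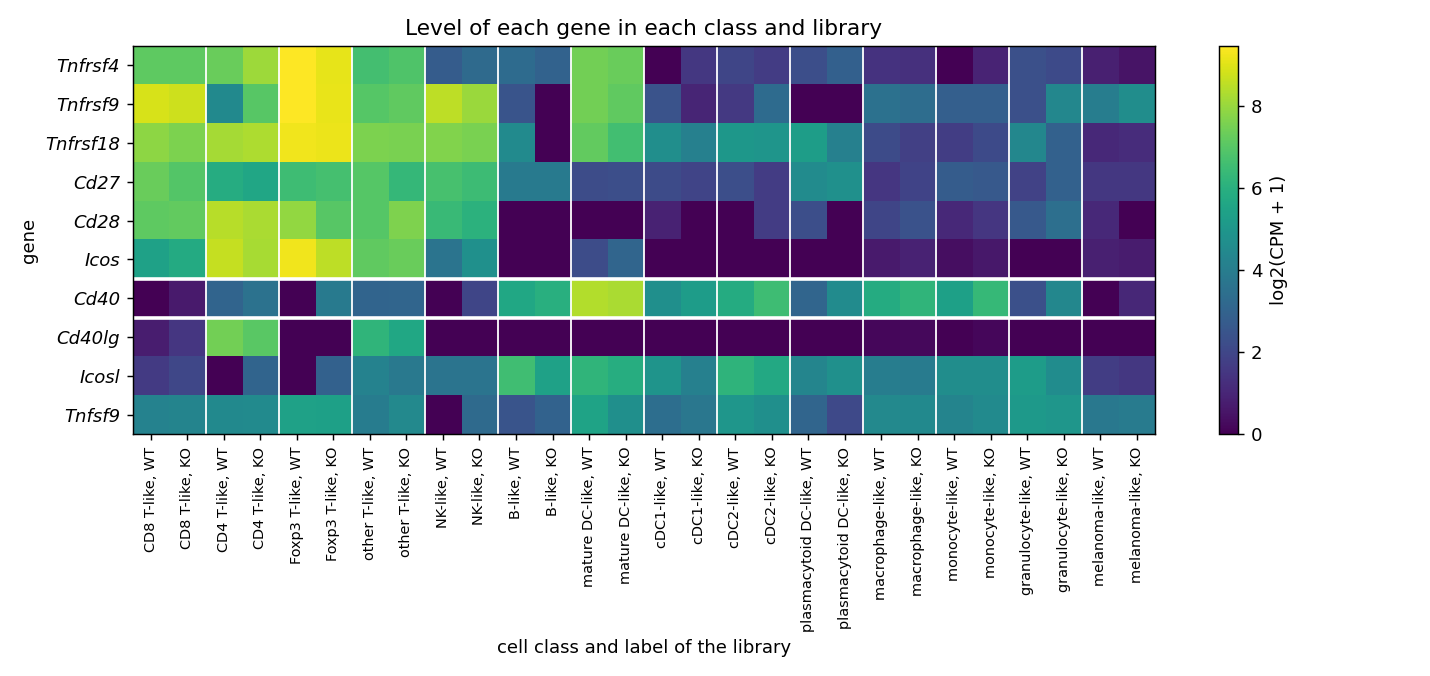
Level of each gene as log2(CPM + 1), by colour, in 14 cell classes (columns, with the library labelled WT to the left of the library labelled KO), receptors of T cells above, then Cd40, then the ligands. Cd40lg was brightest in CD4 T-like and other T-like cells, and Cd40 was brightest in mature DC-like cells, at 334 and 307 CPM.

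Tnfrsf9 encodes CD137, a receptor induced on activated T cells and NK cells. The gene lies on chr4:150914562-150946102 (GRCm38, plus strand), where Camta1 on the other strand overlaps its span and shares no exonic bases with it. RefSeq gives 2 start sites of Tnfrsf9 on GRCm38.p6, and the window of 250 bases before to 50 bases after the second one (chr4:150927749-150928048, plus strand) is shown because it holds matches to NF-kB and AP-1 motifs, factors known to act downstream of costimulation. Capitals mark 2 overlapping matches to the NF-kB consensus, the first starting 43 bases before the start, and the AP-1 letters TGANTCA 15 bases before it.
Tnfrsf9, second start: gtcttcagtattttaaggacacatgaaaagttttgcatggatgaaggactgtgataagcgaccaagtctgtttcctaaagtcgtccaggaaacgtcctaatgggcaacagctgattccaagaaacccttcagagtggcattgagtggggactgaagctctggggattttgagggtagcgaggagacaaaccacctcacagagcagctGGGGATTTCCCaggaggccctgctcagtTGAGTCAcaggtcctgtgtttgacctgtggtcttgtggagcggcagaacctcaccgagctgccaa
The NF-kB consensus, searched on both strands, was in 4.51% of all 32851 RefSeq mouse windows of this length, and TGANTCA, which reads the same on both strands, in 7.81%. The first Tnfrsf9 window and the windows of Tnfrsf4, Tnfrsf18, Cd27 and Icosl held neither, which says only that these letters are not in these windows. Those of Tnfrsf4 and Tnfrsf18 are shown because these are neighbours on chromosome 4, 9551 bases apart on the plus strand, and were counted in similar places.
Tnfrsf4, chr4:156013445-156013744: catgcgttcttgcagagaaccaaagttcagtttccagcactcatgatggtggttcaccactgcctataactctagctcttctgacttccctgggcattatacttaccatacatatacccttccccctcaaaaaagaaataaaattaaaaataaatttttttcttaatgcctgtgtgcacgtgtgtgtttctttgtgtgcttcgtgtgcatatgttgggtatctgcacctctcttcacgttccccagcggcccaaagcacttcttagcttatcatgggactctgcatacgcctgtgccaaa
Tnfrsf18, chr4:156026072-156026371: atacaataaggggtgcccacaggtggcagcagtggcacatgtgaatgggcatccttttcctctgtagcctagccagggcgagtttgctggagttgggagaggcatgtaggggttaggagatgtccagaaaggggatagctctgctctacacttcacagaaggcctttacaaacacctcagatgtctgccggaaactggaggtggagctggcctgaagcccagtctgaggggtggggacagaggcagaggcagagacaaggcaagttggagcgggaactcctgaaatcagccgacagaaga
Both windows are on the plus strand of GRCm38.p6 from RefSeq and hold no capitals because they hold no match.

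In CD8 T-like cells, the cytotoxic T cells, Tnfrsf9 was at 478 CPM (443 to 515) in the library labelled WT against 432 CPM (401 to 465) in that labelled KO. A UMI of it was found in 38.2% and 31.6% of these cells, and in 20.1% and 13.7% once each cell was thinned to 1000 UMIs. In macrophage-like cells, which are deeper, the unthinned shares were 3.12% and 3.18% at medians of 7274.5 and 5423.5 UMIs against 2636 and 2217 in CD8 T-like cells. The macrophage-like class held 346 Tnfrsf9 UMIs, and 1 of its 12 clusters (described below) held 118 labelled WT and 93 labelled KO. That cluster was at 147 and 61 CPM (log2 ratio -1.26, -1.67 to -0.86). Tnfrsf9 was higher in the library labelled KO in 5 of the 12, and 2 intervals excluded 0, both lower in that library. The log2 ratio in CD8 T-like cells was -0.15 (-0.30 to 0.0077), an interval that includes 0.

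In Foxp3 T-like cells, which carry the transcription factor of regulatory T cells, Tnfrsf9 reached 701 CPM (571 to 853) in the library labelled WT against 565 CPM (451 to 700.0) in that labelled KO. Only 24 and 18 cells stand behind these values, and a single cell gave 37 of the 100 UMIs labelled WT. The Foxp3 T-like level over both libraries was above that of CD8 T-like cells (632 against 454 CPM, intervals apart). CD4 T-like cells without Foxp3 were lower, at 21.6 CPM (4.46 to 63.2) in the library labelled WT against 127 CPM (88.8 to 177) in that labelled KO.

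Natural killer (NK)-like cells followed, at 371 CPM (286 to 473) in the library labelled WT against 262 CPM (210.5 to 322) in that labelled KO. A single NK-like cell held 53 of the 65 UMIs in the library labelled WT. With that cell and the richest cell of the other library left out, the log2 ratio went from -0.51 (-0.98 to -0.020) to 1.40, the opposite direction. The share of NK-like cells with a UMI was 15.2% (7.51% to 26.1%) and 25% (18.5% to 32.4%).

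Tnfrsf4 had its highest level in Foxp3 T-like cells too, at 708 CPM (577 to 861) in the library labelled WT against 552 CPM (439 to 685) in that labelled KO. CD4 T-like cells had 159 CPM (99.4 to 240.1) in the library labelled WT against 269.5 CPM (212 to 338) in that labelled KO, and CD8 T-like cells were at 139.9 and 138 CPM. Over both libraries the levels of CD4 T-like, mature DC-like and CD8 T-like cells ran from 232 over 166 to 139 CPM, with neighbours in this order overlapping in their intervals. NK-like cells had almost none, 7.71 CPM from 4 UMIs, although Tnfrsf9 and Tnfrsf18 were counted there. The gene, on chr4:156013843-156016612 (plus strand), has 7 exon blocks of 1365 bases in all.

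In Foxp3 T-like cells Tnfrsf18, which encodes GITR and lies on chr4:156026164-156028895, was at 617 CPM (495 to 760.4) in the library labelled WT against 586 CPM (469 to 722) in that labelled KO. CD4 T-like cells had 288 and 313 CPM, CD8 T-like cells 229 and 193 CPM and NK-like cells 205 and 186 CPM. The CD8 T-like log2 ratio was -0.25 (-0.47 to -0.019), lower in the library labelled KO with an interval that excludes 0, but short of 1.5-fold. At 1000 UMIs per cell the share of CD8 T-like cells with a UMI was 16.8% (12.8% to 21.5%) and 9.12% (6.15% to 12.9%). The log2 ratio of the thinned sums was -1.06, past 1.5-fold. Macrophage-like cells had a Tnfrsf18 UMI in 0.484% and 0.426% at that depth. Exons of Tnfrsf18 share 414 bases with the antisense gene Gm16008, which had 18 UMIs in all kept cells. Tnfsf9 shares 192 exonic bases with the antisense gene Gm11110, which had 407.

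**Figure D2:**
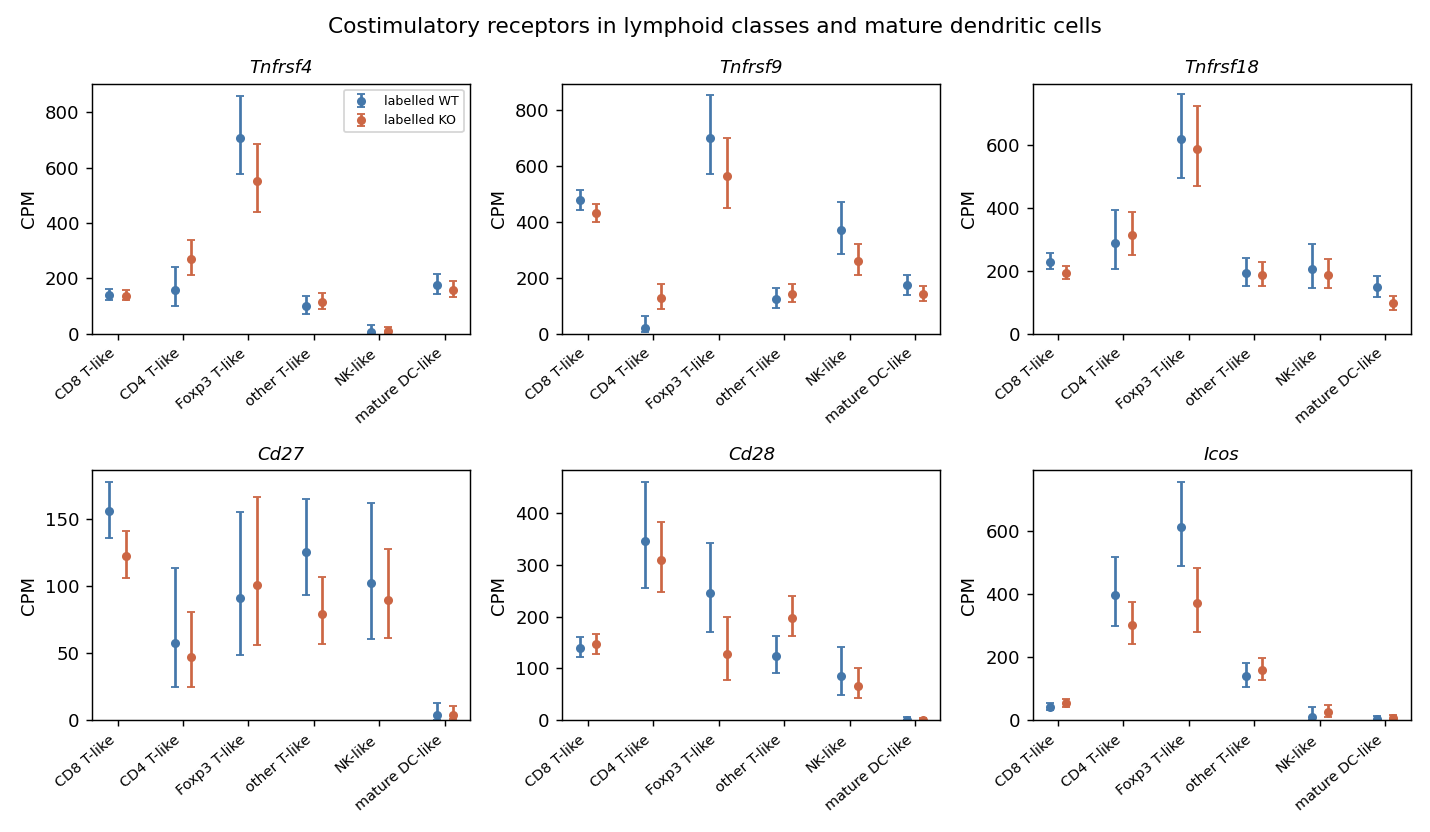
CPM of the 6 T cell receptor genes (1 panel each, each with its own axis from 0) in the T-like classes, NK-like and mature DC-like cells, with 95% Poisson intervals as bars, blue for the library labelled WT and orange for the library labelled KO. Tnfrsf4, Tnfrsf9 and Tnfrsf18 peaked in Foxp3 T-like cells in both libraries and were also counted in mature DC-like cells, where Cd27, Cd28 and Icos were at or near 0.

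Cd28, the receptor for CD80 and CD86, was highest in CD4 T-like cells, at 346 CPM (255 to 459) in the library labelled WT against 309.6 CPM (247 to 383) in that labelled KO. CD8 T-like cells had 139.9 and 146 CPM with a log2 ratio of 0.064 (-0.21 to 0.34). In Foxp3 T-like cells it was at 245 CPM (171 to 341) in the library labelled WT against 128 CPM (77 to 199.7) in that labelled KO, and in other T-like cells at 123 CPM (91.4 to 162) in the library labelled WT against 198 CPM (162 to 239) in that labelled KO. Its log2 ratios there were -0.92 (-1.83 to -0.10) and 0.67 (0.18 to 1.20), on opposite sides of 0, from 35 and 19 UMIs in the first class and 50 and 105 in the second. Cd28 lies on chr1:60716800-60773359 (plus strand).

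Icos (chr1:60977927-61000320) lies 204567 bases beyond Cd28 on the same strand, with Ctla4, the inhibitory receptor for the same ligands as Cd28, between them. In Foxp3 T-like cells it was at 610.2 CPM (489 to 753) in the library labelled WT against 370.2 CPM (279 to 482) in that labelled KO. CD4 T-like cells had 397 and 302 CPM, other T-like cells 140.4 and 158 CPM, and CD8 T-like cells 41.8 and 54.1 CPM. This order held in both libraries, and over both together each step lay outside the intervals of its neighbours. The ratio passed 1.5-fold only in Foxp3 T-like cells, at -0.72 (-1.24 to -0.22) on the log2 scale.

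Cd27, on chr6:125232622-125237010 (minus strand), was highest in CD8 T-like cells, at 156 CPM (136 to 178) in the library labelled WT against 123 CPM (107 to 141) in that labelled KO. In all T-like cells together it was at 139 CPM (124 to 156) in the library labelled WT against 105 CPM (92.5 to 118) in that labelled KO, with a log2 ratio of -0.41 (-0.66 to -0.17). Other T-like cells had 126 CPM (93.6 to 165) in the library labelled WT against 79.1 CPM (57 to 107) in that labelled KO, with a log2 ratio of -0.67 (-1.29 to -0.051). Foxp3 T-like cells had 91.2 and 101 CPM, and CD4 T-like cells 57.7 and 47.4 CPM, both with intervals that include 0. With equal weight for each cell the CD8 T-like log2 ratio was -0.013, against -0.34 for the sums, in which deep cells weigh more.

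Cycling cells were called without matching depth, so deep cells passed more easily. Among CD8 T-like cells, 45 labelled WT and 64 labelled KO had UMIs of at least 3 of 4 cell cycle markers, with medians of 10202 and 10309 UMIs against 2374 and 1872.5 in the others. Cd27 was at 151 CPM in the cycling and 159 in the other cells labelled WT, and at 93.2 and 151 CPM in those labelled KO. At 1000 UMIs per cell a Cd27 UMI was in 8.89% of cycling and 15.1% of other cells labelled WT, and in 12.5% and 11.5% of those labelled KO. Icos had a lower CPM in cycling cells of both libraries, at 17 against 56.2 CPM and 31.5 against 75.7 CPM. At 1000 UMIs per cell too few cycling cells had an Icos UMI to compare, 2 of 45 and 0 of 64, where a count of 0 allows up to 4.69%. Tnfrsf4 had a higher CPM in cycling cells labelled KO (186 against 91.3 CPM) and not in those labelled WT (121 against 151 CPM), while its thinned shares, from few cells, were 7.81% (5 cells) against 4.53% and 8.89% (4 cells) against 6.20%. Tnfrsf9 was at 473 against 481 CPM and 445 against 420.5 CPM, while at 1000 UMIs per cell it was found in 33.3% of cycling and 17.8% of other cells labelled WT, and in 26.6% and 10.3% of those labelled KO.

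Cd40lg, the helper T cell ligand of CD40, lies on chrX:57212143-57224042 (plus strand) and was counted mostly in CD4 T-like and other T-like cells. CD4 T-like cells had 173 CPM (111 to 257) in the library labelled WT against 131 CPM (91.8 to 182) in that labelled KO, and other T-like cells 71.4 and 48.9 CPM. These 2 classes held 48% and 44% of its UMIs among the classes. Foxp3 T-like cells had none in either library, where a count of 0, read as at most 3 counts in each library, allows up to 21 and 20.2 CPM. The log2 ratio in CD4 T-like cells was -0.41 (-1.18 to 0.41).

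T-like cells with a UMI of Tnfrsf4 had one of Tnfrsf9 or Tnfrsf18 more often than T-like cells without. Of the CD8 T-like cells labelled WT with a UMI of Tnfrsf4, 87.3% also had one of Tnfrsf9, against 23.9% of those without. The same shares in the library labelled KO were 89% and 16%. Deep cells show more of every gene, so the shares were also taken at 1000 UMIs per cell, where they were 8 of 20 cells against 18.7% and 6 of 16 cells against 12.4%. Over all T-like cells, Tnfrsf18 was found at that depth in 41.7% of Tnfrsf4-positive and 17.5% of other cells labelled WT, and in 36.8% and 13.2% of those labelled KO. Tnfrsf9 and Icos did not show this at 1000 UMIs: Icos was in 9.21% of Tnfrsf9-positive and 12.4% of other T-like cells labelled WT, and in 12.3% and 13.7% labelled KO.

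Mature DC-like cells, dendritic cells with markers of migration to lymph nodes, carried Tnfrsf4, Tnfrsf9 and Tnfrsf18 beside Cd40. Tnfrsf4 was at 176 CPM (143 to 215) in the library labelled WT against 159 CPM (132 to 189) in that labelled KO, Tnfrsf9 at 173 and 141 CPM, and Tnfrsf18 at 147 and 95.9 CPM. Over both libraries Cd27 was at 3.72 CPM, Icos at 5.95 CPM and Cd28 at 0 UMIs there. The 6 T cell markers, which the gate itself used to set aside mixed cells, summed to 10.9 and 8.83 CPM, with 3 and 0 of them at 0, against 3705 and 3346 CPM in T-like cells. A UMI of Tnfrsf4 was found in 38.7% and 36.4% of mature DC-like cells against 1.34% and 0.943% of macrophage-like cells, whose median depth was higher (5310 and 4712 against 7274.5 and 5423.5 UMIs). Type 1 and type 2 conventional dendritic cells (cDC1-like and cDC2-like) had 0.917 and 2.60 CPM of Tnfrsf4.

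Cd40 in mature DC-like cells was at 334 CPM (288 to 386) in the library labelled WT against 307 CPM (269 to 348) in that labelled KO, above every other class in both libraries, and 69.9% and 58.7% of these cells had a UMI. The interval of its log2 ratio, -0.13 (-0.41 to 0.16), includes 0. Of the 6 genes measured in this class, Tnfrsf18 and Tnfsf9 passed 1.5-fold, both lower in the library labelled KO, where 6.19% of all genes were that much lower and 13.6% higher. Their log2 ratios were -0.62 (-1.09 to -0.15) and -0.78 (-1.72 to 0.13), the second from 24 and 20 UMIs. In this class cDC1 markers went from 49 to 141 CPM (0 and 0 of 6 at 0), cDC2 markers from 429 to 314 CPM (1 and 1 of 5 at 0) and cycle markers from 23.6 to 83.2 CPM (0 and 0 of 4 at 0), and their part was not tested.

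Among the ratios past 1.5-fold, that of Cd40 in monocyte-like cells had the narrowest interval. Cd40, on chr2:165055627-165072948 (plus strand), was at 41 CPM (34.5 to 48.2) in the library labelled WT against 79.7 CPM (73.6 to 86.3) in that labelled KO, 1.94-fold higher in the second with a log2 ratio of 0.96 (0.70 to 1.23) from 143 and 617 UMIs. It was the only one of 6 measured genes past 1.5-fold in these cells, where 5.65% of all genes were that much higher and 4.96% lower. Granulocyte markers in these cells went from 292 to 176 CPM (0 and 0 of 8 at 0) and cycle markers from 41 to 22.2 CPM (0 and 0 of 4 at 0), while monocyte markers were at 8456 and 8721 CPM, and their part was not tested. The share of monocyte-like cells with a Cd40 UMI was 14.8% (12.4% to 17.5%) and 19.3% (17.6% to 21.1%), and 3.86% and 6.76% at 1000 UMIs per cell. T-like cells had a Cd40 UMI in 0.514% and 1.20% (1.88 and 3.87 CPM), at median depths of 2169 and 1763 UMIs against 4063 and 3302 in monocyte-like cells.

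The genes that encode the ligands of CD28 were also higher in the library labelled KO in these cells. Cd80 was at 16 and 33.1 CPM (log2 ratio 1.03, 0.62 to 1.49) and Cd86 at 59.9 and 93.2 CPM (0.64, 0.41 to 0.87), and Bcl2l1, a survival gene, at 34.7 and 64.7 CPM. Icosl, the ligand of ICOS, had 24.1 CPM (19.2 to 29.8) in the library labelled WT against 24.3 CPM (20.9 to 28) in that labelled KO and a log2 ratio of 0.0094 (-0.36 to 0.40). Tnfsf9 was at 18.3 and 22 CPM, a log2 ratio of 0.25 (-0.16 to 0.70).

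Monocyte-like cells were not one kind of cell, so Cd40 was also read within clusters. These were built on the 2000 most variable genes without these 10 genes, the pathway lists, and mitochondrial, ribosomal protein and haemoglobin genes. Among 9 clusters with at least 20 monocyte-like cells of each library, the level over both libraries ran from 29.8 to 183 CPM. The highest cluster held 5.33% of the class in the library labelled WT and 10.9% in that labelled KO. Cd40 was higher in the library labelled KO within 8 of the 9 clusters, with 25.1 against 33.2 CPM in the largest, where the interval of the log2 ratio included 0 (0.39, -0.29 to 1.12). The next largest had 45.1 against 74.4 CPM. Intervals excluded 0 in 4 clusters, all higher in the library labelled KO. Cd80 was higher in 8 and Cd86 in 7 of the same clusters, each with 1 interval that excluded 0, which for Cd86 was in the cluster with the most Cd40 (log2 ratio 1.03), and in the largest cluster Cd86 had -0.10. With equal weight for each cluster, among them 1 of 20 and 43 cells with 0 and 5 UMIs (0 and 86.3 CPM), the Cd40 log2 ratio was 0.93. With cells classed by cluster in place of single-cell markers it was 0.48, under 1.5-fold, and 1455 macrophage-like cells were counted as monocytes in that scheme.

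In macrophage-like cells Cd40 was at 56.1 CPM (52.5 to 59.8) in the library labelled WT against 72.8 CPM (69 to 76.8) in that labelled KO, with a log2 ratio of 0.38 (0.26 to 0.50), an interval that excludes 0 but a ratio short of 1.5-fold. Here the clusters went both ways: Cd40 was higher in the library labelled KO in 8 of 12, and with equal weight for each cluster the log2 ratio was -0.0069. In the largest cluster it was at 49.1 and 83.4 CPM, and in the one with the most Cd40 at 251 and 151 CPM, the reverse. The same cluster had the most Cd40 among monocyte-like cells, whose part of it was at 133 and 194 CPM. The single-cell markers had split its cells between the classes, and the ratios of the parts went opposite ways (log2 -0.74, -1.10 to -0.36, and 0.52, -0.026 to 1.16). Its macrophage-like part held 2.67% of that class in the library labelled WT and 6.17% in that labelled KO. Monocyte markers in macrophage-like cells went from 1246 to 1919 CPM (0 and 0 of 8 at 0) and macrophage markers from 14660.2 to 13109 CPM (0 and 0 of 10 at 0). Granulocyte markers there went from 174.6 to 93.2 CPM (0 and 0 of 8 at 0), and the part of all these was not tested. Cd27 at 1.82 and 2.77 CPM was the only gene of 9 measured in these cells past 1.5-fold, with an interval that includes 0. Its level was one where RNA of T cells is counted too (T cell markers summed to 10.2 and 9.001 CPM), and 4.41% of all genes were that much higher and 3.35% lower.

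**Figure D3:**
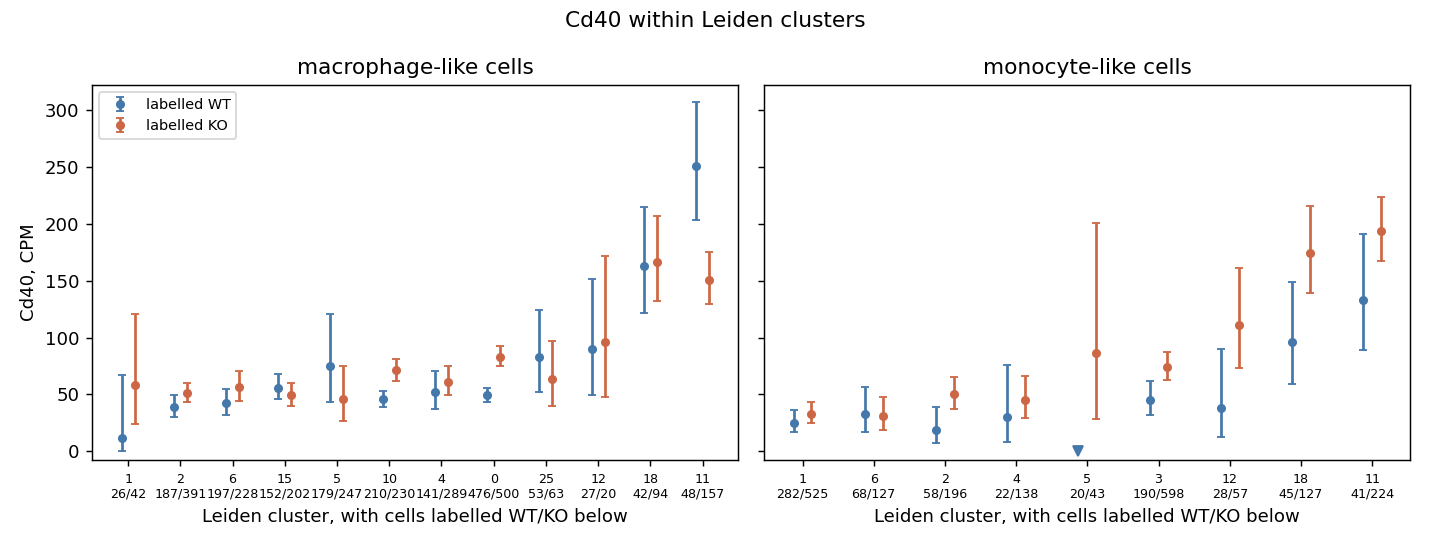
Cd40 in CPM within each Leiden cluster of macrophage-like and of monocyte-like cells, ordered by level, with 95% Poisson intervals as bars and the numbers of cells labelled WT and KO under each cluster number; the triangle marks a cluster with no UMI. The library labelled KO lay higher in 8 of 9 monocyte-like clusters and in 8 of 12 macrophage-like ones. A number in both panels is the same cluster, split between the classes by the single-cell markers.

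cDC2-like cells had Cd40 at 55.6 CPM (42.1 to 72.1) in the library labelled WT against 91 CPM (72.4 to 113) in that labelled KO, with a log2 ratio of 0.71 (0.20 to 1.22). It alone of 4 measured genes passed 1.5-fold, and 8.22% of all genes were that much higher and 9.42% lower. Markers of mature dendritic cells moved with it in these cells, from 40 to 211 CPM summed over 7 genes, with 2 at 0 in each library, cycle markers went from 438 to 244 CPM (0 and 0 of 4 at 0), and the part of both was not tested. In cDC1-like cells Cd40 was at 25.4 and 36.6 CPM, and the interval of the log2 ratio included 0 (0.52, -0.21 to 1.28). B-like cells had 49.3 and 62.2 CPM from 11 and 9 UMIs.

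Icosl, on chr10:78069302-78083913 (plus strand), was counted at similar levels in B-like, mature DC-like and cDC2-like cells, 73.5, 64.8 and 61.8 CPM over both libraries with overlapping intervals. In B-like cells it was at 94.2 CPM (58.3 to 144) in the library labelled WT against 41.5 CPM (15.2 to 90.3) in that labelled KO, and in cDC1-like cells at 28.9 CPM (19.9 to 40.6) in the library labelled WT against 16.4 CPM (9.53 to 26.2) in that labelled KO. Both ratios passed 1.5-fold toward the library labelled WT with intervals that include 0, at -1.10 (-2.78 to 0.17) and -0.80 (-1.76 to 0.066) on the log2 scale. Among B-like cells, 11.6% of all genes were that much lower and 15.0% higher, and among cDC1-like cells 6.66% and 11.5%. Plasma cell markers in B-like cells went from 5489.9 to 9833 CPM (1 and 0 of 5 at 0), and in cDC1-like cells macrophage markers went from 764 to 1342 CPM (0 and 0 of 10 at 0) and mature dendritic cell markers from 77.9 to 20.2 CPM (2 and 4 of 7 at 0), and their part was not tested. Icosl was 1 of 2 genes measured in B-like cells and 1 of 4 in cDC1-like cells. In cDC2-like cells it was at 71.2 and 51 CPM.

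Tnfsf9, the ligand of CD137, lies on chr17:57105325-57107757 (plus strand) and had no class that stood out. Its levels over both libraries were 41.2 CPM in Foxp3 T-like, 33 in granulocyte-like, 32.8 in mature DC-like and 28 in cDC2-like cells, all with overlapping intervals. Macrophage-like cells, the largest class, were at 21.3 CPM (19.1 to 23.6) in the library labelled WT against 21.5 CPM (19.4 to 23.7) in that labelled KO, with a log2 ratio of 0.015 (-0.20 to 0.23). Granulocyte-like cells had 34.1 and 30.2 CPM, and none of the 2 genes measured there, Tnfsf9 and Icosl, passed 1.5-fold, against 20.8% of all genes higher and 7.97% lower. Melanoma-like cells, which carry tumour RNA despite the CD45 sort, had Tnfsf9 at 12.7 and 14.2 CPM and Tnfrsf9 at 15 CPM (10.7 to 20.5) in the library labelled WT against 23.9 CPM (19.6 to 28.7) in that labelled KO. Tnfrsf9 passed 1.5-fold there (log2 ratio 0.66, 0.13 to 1.23), beside 8.45% of all genes higher and 6.50% lower, and T cell markers moved with it from 1.93 to 3.66 CPM summed over 6 genes, 3 of them at 0 in the first and 0 in the second. Their part was not tested.

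In the T-like cells as a whole none of 9 measured genes passed 1.5-fold, against 5.79% of all genes higher and 4.84% lower, and 2 of the 9 had intervals that exclude 0, Tnfrsf9 (-0.19, -0.32 to -0.048) and Cd27. Their log2 ratios ran from -0.41 to 0.28 with a median of -0.016 beside 0.033 for all genes. Tnfrsf4 was at 171 and 171 CPM and Icos at 122 and 120.1 CPM. In CD8 T-like cells none of 7 passed, against 7.74% and 5.72% of all genes, and 2 had intervals that exclude 0, Tnfrsf18 and Cd27. The share of all genes with intervals that exclude 0 was not computed for either class. In NK-like cells none of 4 passed, against 14.7% and 10.3%.

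The smaller T-like classes gave 6 ratios past 1.5-fold. In CD4 T-like cells Tnfrsf4 and Tnfrsf9 of 7 measured genes were higher in the library labelled KO, with log2 ratios of 0.74 (0.062 to 1.52) and 2.36 (0.89 to 4.90), where 13.8% of all genes were that much higher and 14.4% lower. Tnfrsf9 rested on 3 and 35 UMIs, and 1 cell held 10 of the 22 Tnfrsf4 UMIs labelled WT. Without the richest cell of each library the Tnfrsf4 log2 ratio was 1.40. With T cells classed by cluster, the log2 ratios of Tnfrsf4 and Tnfrsf9 were 0.022 and -0.032. The CD4 class there held 252 other T-like, 155 CD4 T-like, 103 unassigned, 42 Foxp3 T-like, 33 CD8 T-like, 22 mixed and 4 macrophage-like cells. Among markers summed over a list, those of mature dendritic cells, which carry both genes, went from 28.8 to 160.3 CPM (4 and 2 of 7 at 0) in CD4 T-like cells and those of the cell cycle from 923 to 448 CPM (0 and 0 of 4 at 0), and their part was not tested. In Foxp3 T-like cells Cd28 and Icos of 6 measured were lower, against 14.5% of all genes lower and 12.8% higher. In other T-like cells Cd28 was higher and Cd27 lower of 7 measured, against 10.2% and 9.95%. Monocyte markers in Foxp3 T-like cells went from 421 to 222 CPM (5 and 3 of 8 at 0) and B cell markers from 267 to 108 CPM (4 and 5 of 7 at 0). In other T-like cells macrophage markers went from 744 to 425 CPM (0 and 0 of 10 at 0), granulocyte markers from 150.3 to 43.3 CPM (0 and 2 of 8 at 0), cDC2 markers from 123 to 9.41 CPM (0 and 3 of 5 at 0) and cycle markers from 177 to 289.9 CPM (0 and 0 of 4 at 0). The part of these was not tested either.

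Over the 13 classes that do not share cells and held a measured gene, 66 pairs of gene and class were measured. Of these 7 were past 1.5-fold higher (10.6%) and 7 lower (10.6%) in the library labelled KO, beside 9.61% and 7.20% of all pairs. The shares of the costimulation genes were thus near those of all genes. Of the 14 ratios past 1.5-fold, 10 had intervals that exclude 0. The share of all pairs with such intervals was not computed, so this count has nothing to stand beside.

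**Figure D4:**
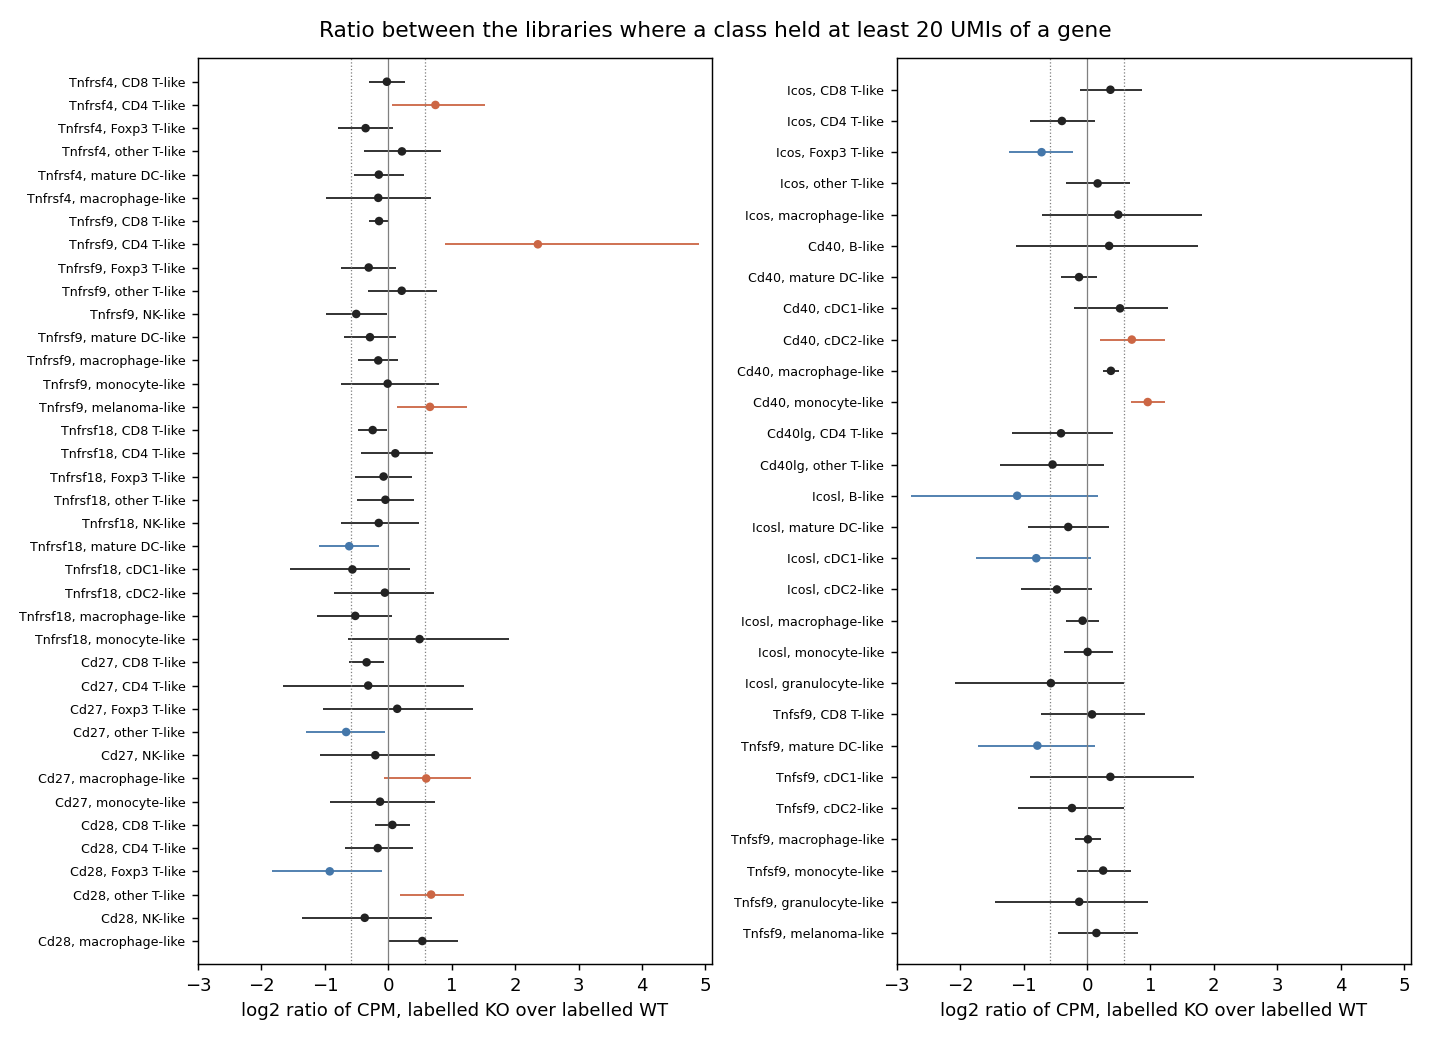
Log2 ratio of CPM, library labelled KO over library labelled WT, for the 66 pairs of gene and class with at least 20 UMIs, with exact 95% intervals as lines; dotted lines mark 1.5-fold, orange points lie past it toward the library labelled KO and blue points toward the library labelled WT. Cd40 in monocyte-like cells had the narrowest interval among the 14 coloured points, and 52 points lay between the dotted lines.

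The other genes of the pathway were taken as lists of 16 further receptors and ligands and 22 signalling genes, from TRAF adaptors to NF-kB subunits and kinases of the CD28 pathway. In T-like cells 12 and 22 of these were measured and 1 passed 1.5-fold, beside 5.79% of all genes higher and 4.84% lower. It was Tnfsf8, the CD30 ligand, at 21.2 and 35.3 CPM (log2 ratio 0.73, 0.20 to 1.28). In CD8 T-like cells (7.74% and 5.72%) none of 10 receptors and ligands passed, and of 22 signalling genes Relb, an NF-kB subunit, was higher in the library labelled KO (20.2 and 33.2 CPM) and the survival gene Bcl2l1 lower (36.9 and 22.1 CPM).

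These counts stand beside the shares of all genes past 1.5-fold in each class. In CD4 T-like cells, where 13.8% of all genes were higher and 14.4% lower, Cd226 and Slamf1 were lower of 5 receptors and ligands, and of 16 signalling genes Nfkb2 and Rel, both NF-kB subunits, were higher and Pik3cd lower. Nfkb2 was at 28.8 and 91.1 CPM from 4 and 25 UMIs. In Foxp3 T-like cells (12.8% and 14.5% of all genes) 2 of 10 signalling genes were higher and 1 lower, the last being Traf1, an adaptor of OX40 and CD137, at 238 and 155 CPM. Other T-like cells (10.2% and 9.95%) had Crtam lower (66.5 and 26.4 CPM) and Traf2 higher.

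In monocyte-like cells (5.65% of all genes higher and 4.96% lower) 2 of 8 receptors and ligands (Cd80 and Cd86) were higher and 2 (Tnfrsf8 and Cd2) lower, and 1 of 20 signalling genes, Bcl2l1, was higher. In macrophage-like cells (4.41% and 3.35%) 3 of 12 were higher (Tnfsf8, Tnfsf15 and Crtam) and 2 lower (Cd2 and Slamf1), and 2 of 22 signalling genes were higher, all 7 under 5 CPM in both libraries. cDC2-like cells (8.22% and 9.42%) had Cd80 higher of 4 receptors and ligands, and 3 of 19 signalling genes higher and 1 lower, with Cd80 at 18.5 and 32.2 CPM. cDC1-like cells (11.5% and 6.66%) had 1 of 19 signalling genes lower and Cd80 lower of 4, at 13.1 and 6.74 CPM. In mature DC-like cells (13.6% and 6.19%) Slamf1 was higher of 6 and none of 17 signalling genes passed. In NK-like cells (14.7% and 10.3%) 1 of 3 receptors and ligands was higher and 1 lower, and 2 of 15 signalling genes were higher. In B-like cells (15.0% and 11.6%) 1 of 2 was higher, and 1 of 11 signalling genes was higher and 4 lower. Granulocyte-like cells (20.8% higher and 7.97% lower of all genes) had 5 of 18 signalling genes lower and 2 higher, with the NF-kB inhibitor Nfkbia at 2085 and 869 CPM.

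The genes counted in the most similar places were found over 28 profiles, each a class in 1 library, among 8829 genes that were not gate markers. These correlations describe the profiles, which share libraries and depth. Tnfrsf4 was most like Il2ra (r = 0.956), the high-affinity interleukin-2 receptor chain of regulatory and activated T cells, then Pdcd1 (0.886) and Ikzf4 (0.877). Tnfrsf9 was most like Ccl5 (0.848), a chemokine of cytotoxic cells, Cd247 (0.826) and Nkg7 (0.823), and Tnfrsf18 was close to Cd247 (0.847) and Xlr4a (0.845). Cd28 followed Rnf125 (0.961) and Zap70 (0.960), a kinase of T cell receptor signalling, Cd27 followed Rbl2 (0.936), Sh2d2a (0.923) and Thy1 (0.922), and Icos followed Podnl1 (0.965), Camk4 (0.963) and Ubash3a (0.958).

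Cd40lg stood nearest to Il17a (0.976), the cytokine of type 17 T cells, Tnfsf11 (0.868) and Tnfsf8 (0.851). Cd40 was nearest to Grk3 (0.885), Cd83 (0.857), a marker of dendritic cell maturation, and the class II gene H2-Eb1 (0.842). Icosl was nearest to Napsa (0.883), Nuak2 (0.882) and Filip1l (0.881), and Tnfsf9, with the loosest match, to Mapkapk3 (0.809), St6galnac6 (0.763) and Nipsnap3b (0.725). Among the 10 genes themselves Cd28 and Icos were the most alike (0.898), then Icos and Tnfrsf4 (0.867). Between receptors and their ligands r was 0.20 for Tnfrsf9 and Tnfsf9, -0.159 for Cd40 and Cd40lg and -0.630 for Icos and Icosl.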

How the data were processed

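The authors made the counts: per the labels and file headers, reads were aligned to mm10 with Cell Ranger 4.0.0, and the deposited matrix holds whole UMI counts of 31053 genes in 5895 barcodes labelled WT and 8446 labelled KO (45963969 and 54052317 UMIs), with no normalisation. Here cells with at least 200 genes and at most 10% mitochondrial UMIs were kept (5661 and 8157). Scrublet's own threshold (scanpy 1.11.5) marked 1 cell in each library, so the 256 and 532 highest scores, 0.8% per 1000 cells, were removed. 13 barcode sequences occurred in both libraries. Each cell took the class of which it showed the largest share of markers. Leiden clusters (leidenalg 0.10.2, resolution 1.5) gave other classes. Both the gate's thresholds and the clusters' were set after the data were seen, and 379 and 646 cells stayed unassigned. UMIs were summed per class and library, and ratios carry 0.5 UMI in each sum. A gene was measured with at least 20 UMIs over both libraries. Intervals were exact Poisson (CPM), Clopper-Pearson (shares) and conditional binomial (ratios), and a floor is 3 counts. The ratio code was tested on simulated data. All 10 genes are named, genes of 2 pathway lists past 1.5-fold (at most 6 per class, some given only as counts) and the 3 genes most like each in log2(CPM + 1), of which some are not reported here. Ctla4, Gm16008, Gm11110, Camta1 and Sdf4 were named after their values or places were seen. The genes, lists and rules were chosen with earlier results of these data known. Coordinates are from GENCODE M21 (GRCm38), and promoter windows, given for 5 of the 10 genes, from RefSeq. The sources used here do not state whether counting used strand, so overlaps with antisense genes are uncertain.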

Additional observations from a re-analysis of the deposited data

Results flagged for a closer look

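Cd28 went past 1.5-fold in opposite directions in 2 T-like classes, with an interval that excludes 0 in each. Its log2 ratio of KO over WT was 0.67 in other T-like cells and -0.92 in Foxp3 T-like cells, each from 1 library per genotype, so the difference between the classes was not tested. At 1000 UMIs per cell the Foxp3 T-like value was 0.052, from 4 and 3 UMIs, and that of other T-like cells 0.48.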

How the results depend on the processing

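No paired analysis was possible because each genotype had 1 library. Of 662 recomputed ratios, 618 stayed within the counting interval of the reported value, 41 left it, and 3 that were past 1.5-fold as reported changed sign. In all 79 changed sign, 22 of them at 1000 UMIs per cell. The 3 were Cd28 in Foxp3 T-like cells (0.052) and Cd27 in macrophage-like cells (-0.22) at 1000 UMIs per cell, both from under 10 UMIs, and Tnfrsf9 in CD4 T-like cells by cluster (-0.032). The count of genes past 1.5-fold over all classes that share no cells, 14 as reported, was 30 with no minimum of 20 UMIs, 2 at 2-fold and 7 by cluster. The clusters gave no Foxp3 T-like, other T-like or melanoma-like class, so ratios of these classes could not be counted there. The shares of all genes at these settings were not computed. In T-like cells the count was 0, and 1 with no minimum, with equal weight for each cell or with mixed cells put back, a choice added after the data were seen. In macrophage-like cells it was 1, and 0 at 2-fold, at 1000 UMIs per cell or with mixed cells back, and 2 with doublets kept, equal cell weights or the richest cells left out. In monocyte-like cells it was 1, and 0 at 2-fold, 3 with doublets kept, 2 without the richest cells and 4 with mixed cells back. In mature DC-like cells it was 2, and 0 at 2-fold and 1 at 1000 UMIs per cell, by cluster, with equal cell weights, without the richest cells or with mixed cells back. All 9 alternatives kept Icosl in B-like cells past 1.5-fold and 9 of 10 kept Cd40 in monocyte-like cells. With mixed cells back, Tnfrsf4 in T-like cells had a log2 ratio of 0.34 and Tnfrsf9 in CD8 T-like cells 0.11. With 10 CPM as pseudocount, 15 of 30 most similar genes were shared. By cluster, 8 of 10 genes kept their highest class, with Foxp3 T-like and CD4 T-like cells merged in both schemes since no cluster stood for Foxp3 T-like cells. After this merge the highest class was CD8 T-like for Tnfrsf9 and granulocyte-like for Tnfsf9, so the levels in Foxp3 T-like cells were not compared. Depth limits the classes under 100 cells, where 1 cell can set a value. The cause was not tested in any of these.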

Other observations

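Sdf4, a calcium-binding protein of the Golgi, ends 233 bases before Tnfrsf4 begins on the same strand, and its profile over the classes was the second most like that of Tnfrsf4 when 10 CPM was the pseudocount (r = 0.866). It was at 856 and 1037 CPM in Foxp3 T-like cells, 263 and 269 in CD8 T-like cells and 102 and 109.9 in macrophage-like cells. In CD4 T-like cells it was at 245 CPM in the library labelled WT and 437 in the library labelled KO, beside 159 and 269.5 CPM of Tnfrsf4. In mature DC-like cells, which had Tnfrsf4, Sdf4 was at 125 and 151 CPM.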
